A study of Homo sapiens with 9 samples.

Results

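The collagen genes are the genes that encode the alpha chains of collagen. They were taken here as every gene whose symbol reads COL, digits, A, digits, and antisense symbols were left out. The rule found 43 of 19775 genes with a probe set of their own on the array, through 112 probe sets. Of these, 11 encode chains of fibrillar collagens, 6 chains of the basement membrane collagen type IV and 26 chains of other types. Each gene was represented by its probe set of highest average log2 signal over the arrays. A gene was tested when its signal lay above the array's median on at least 3 of 9 arrays, which 26 collagen genes did (8 fibrillar, 3 basement membrane, 15 other) and 17 did not. RNA came from U87, an established human glioma line, 72 h after transfection with 50 nM of a duplex in Lipofectamine RNAiMAX. The groups are miR-376a*A (the unedited microRNA), miR-376a*G (the form edited from adenosine to inosine, which is read as guanosine) and a control microRNA, with 3 arrays each. All 3 groups share the line and the transfection, and no group without transfection was analysed here. The replicates are called biological in the labels, which do not name separate cultures, so p-values measure the spread between these samples.

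Collagens are secreted as three-chain helices. The chains are hydroxylated and folded in the endoplasmic reticulum, trimmed outside the cell, and crosslinked there into fibrils or sheets. Fibrillar types such as I, III and V form the cables of connective tissue, while type IV forms the sheet of basement membranes, with chain pairs encoded side by side in opposite directions. Other types sit on fibrils, anchor epithelia, form beaded filaments or span the plasma membrane. Normal brain tissue outside its vessels holds little fibrillar collagen, and glioma lines in culture are known to make collagens.

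Sequences are shown for the transfected microRNA, for the head-to-head pair COL4A1 and COL4A2, of which COL4A2 was called and COL4A1 was too dim to test, and for COL5A1, the fibrillar gene with the largest difference. The sources used here do not give the duplexes' own sequences. The first line is the unedited mature sequence of hsa-miR-376a-5p, the present name of miR-376a*, from RefSeq (GRCh38.p14, chr14:101040788-101040809, plus strand), with the seed, bases 2 to 8, in capitals. The second holds the 126 bases between the annotated starts of COL4A1 and COL4A2 (GRCh38.p14, chr13:110307158-110307283, plus strand, reading towards COL4A2). The third holds the 250 bases upstream of COL5A1 (GRCh38.p14, chr9:134641553-134641802, plus strand). In the DNA lines capitals mark the GC box GGGCGG and the CCAAT box CCAAT on either strand.
hsa-miR-376a-5p: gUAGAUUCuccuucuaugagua
COL4A1 and COL4A2: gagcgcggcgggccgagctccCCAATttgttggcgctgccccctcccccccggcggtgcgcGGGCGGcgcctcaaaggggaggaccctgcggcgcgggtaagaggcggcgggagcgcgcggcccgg
COL5A1: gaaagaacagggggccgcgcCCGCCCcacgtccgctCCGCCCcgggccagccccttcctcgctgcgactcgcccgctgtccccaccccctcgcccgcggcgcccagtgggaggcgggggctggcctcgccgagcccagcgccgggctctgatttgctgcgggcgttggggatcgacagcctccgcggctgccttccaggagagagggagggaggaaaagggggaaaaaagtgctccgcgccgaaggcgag
The COL4A1 and COL4A2 stretch holds 1 GC box and 1 CCAAT box, and the COL5A1 stretch 2 GC boxes. The table of upstream sequences used here held 31 of the 43 genes, and COL1A1, COL1A2 and COL8A1 were not among them. Within 250 bases upstream, searched on both strands, GGGCGG stood in 18 of 31 collagen genes (58.1%) and in 42.3% of the 27305 genes of the table. For CCAAT the shares were 25.8% and 33.0%, for the TATA box TATAAA 12.9% and 11.1%, and for the Snail E-box CAGGTG 16.1% and 17.5%. The median GC content of these upstream stretches was 65.6% for the collagen genes and 58.0% for all genes of the table. Its part in the shares was not tested. A match is a run of letters and was not tested as a binding site.

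On 2 of the 9 arrays the profile lay closer to another group than to its own. Over the 12587 tested genes, replicate 1 of miR-376a*A and replicate 1 of control stood apart. Pairs within a group correlated at r = 0.984 to 0.989 once they were left out, while pairs of miR-376a*A and control correlated at 0.932 to 0.935 (Pearson's r, taken over genes, so a description only). Replicate 1 of miR-376a*A reached 0.987 and 0.990 with control replicates 2 and 3. Replicate 1 of control reached 0.990 and 0.982 with replicates 2 and 3 of miR-376a*A. RAP2A, known as a target of the unedited form, gave 895, 412 and 531 (miR-376a*A), 899, 888 and 863 (miR-376a*G) and 353, 702 and 784 (control). In each of miR-376a*A and control, replicate 1 lay closer to the other group's replicates 2 and 3 than to its own. Whether the labels of these 2 arrays were exchanged was not tested. If they were, each as-labelled mean of miR-376a*A and of control would mix both treatments, and all group names here are those of the labels. Collagen results below are therefore given as labelled and, where a call changes or a called value moves by over 1.5 times, also from a fit of the 7 arrays left without these 2, called the 7-array fit (2 of miR-376a*A, 3 of miR-376a*G, 2 of control). The choice of arrays and the p-values of that fit rest on the same data. Epithelial markers were dim (0 of 4 above the array median on 3 arrays). Of 5 endothelial markers, 2 were above the median on at least 3 arrays, PECAM1 (38.7 to 135) and KDR (18.1 to 103). The summed endothelial signal was 83.7 to 166 for miR-376a*A, 145 to 217 for miR-376a*G and 77.3 to 199.7 for control. Of 3 oligodendrocyte and 3 leukocyte markers with a probe set of their own, 1 in each list was above the median on at least 3 arrays. Of 8 glioma or astrocyte markers, 5 were above the median on at least 3 arrays. Among these 5, VIM (2107 to 2975) and CD44 (1475 to 2193) were bright. NES (32.4 to 61.6), ALDH1L1 (24.0 to 43.6) and SOX2 (10.2 to 26.4) were much dimmer. The other 3, GFAP (1.48 to 5.66), S100B (0.68 to 1.30) and AQP4 (1.73 to 11.9), were above it on no array. Of 6 neuron markers, 4 were above the median on at least 3 arrays, with a summed signal of 504 to 2106 for miR-376a*A, 379.6 to 413 for miR-376a*G and 443 to 1814 for control. SNAP25 alone ran from 179 to 1825 over the 9 arrays. SYT1 reached at most 162, GAD1 109 and SLC17A7 39.6, and RBFOX3 and NEFL were above the median on no array. All 6 fibroblast or pericyte markers were above the median on at least 3 arrays, and their summed signal was 790 to 1213 for miR-376a*A, 399.9 to 513 for miR-376a*G and 772 to 1000.3 for control. The part of the endothelial list, the neuron list and this list in the collagen results was not tested. In RNA from bulk cells, fewer cells of a type and less RNA per cell cannot be told apart.

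In cells given miR-376a*G, 8 of the 26 tested collagen genes fell against control and 1 rose. Those that fell were COL5A1 and COL27A1 among fibrillar genes, COL4A5 in basement membrane, and COL6A3, COL7A1, COL8A1, COL13A1 and COL15A1 among other types. Of these, COL13A1 and COL15A1 passed the filter only through the 6 arrays without miR-376a*G, so their fall is not independent of the filter. COL4A2 rose 4.18-fold. Over all tested genes 15.4% fell and 18% rose, and 33.4% were called either way (limma, Benjamini-Hochberg adjusted p under 0.05). The median log2 difference of the 26 genes was -0.27, beside 0.12 for all tested genes, and the groups did not overlap for 11 of them, beside 53.4% of all tested genes. In the 7-array fit, 11 collagen genes fell and 4 rose (all genes, 25% and 31.2%, 56.1% together), and the median was -0.05. The split also moved with scaling. The array's hybridisation controls, spiked into each sample, had a mean log2 signal of 7.12 to 7.29 for miR-376a*G, 7.51 to 7.70 for control and 7.82 to 7.92 for miR-376a*A, and the part of this difference was not tested. With arrays scaled to the hybridisation controls, the median of all genes was 0.51, 5 collagen genes were lower and 4 higher (all genes, 7.52% and 44.4%). COL5A1, COL27A1, COL8A1, COL13A1 and COL15A1 stayed lower and COL4A2 stayed higher under the 4 scalings run.

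Against miR-376a*G, cells given miR-376a*A had 10 collagen genes higher and 1 lower. The higher ones were the fibrillar COL1A2, COL5A1 and COL27A1, the basement membrane gene COL4A5, and COL6A2, COL6A3, COL7A1, COL8A1, COL13A1 and COL15A1 of other types, and the lower one was COL4A2. Here too, COL13A1 and COL15A1 had passed the filter only through arrays without miR-376a*G, so their calls are not independent of the filter. Among all tested genes 16.4% were higher and 21.8% lower (38.2% called). The median log2 difference of the 26 genes was 0.42, beside -0.14 for all tested genes, and the groups did not overlap for 14 of them, beside 53.5% of all. COL10A1, among these 14 but not called, also passed the filter only through arrays without miR-376a*G. With both arrays left out, 16 collagen genes were higher and 2 lower (all genes, 25.7% and 34%, 59.6% together), with a median of 0.87. Among the 16, COL5A3 and COL21A1 passed the filter only through 3 arrays, none of them of miR-376a*G. Their calls are therefore not independent of the filter either. Scaled to the hybridisation controls, 6 collagen genes were higher and 7 lower (all genes, 5.38% and 65.2%), with the median of all genes at -0.81, and COL1A2 turned from 0.52 to -0.15. This comparison and that of miR-376a*G with control share the miR-376a*G arrays, so their calls are not independent of each other.

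Between miR-376a*A and control, 0 of the 26 genes were called by limma as the arrays are labelled, and 0 had an unadjusted p under 0.05. Of all 12587 tested genes 0 were called (0%), and 463 (3.68%) had an unadjusted p under 0.05. The median log2 difference of the collagen genes was 0.25, beside -0.02 for all tested genes, and 21 of 26 lay above 0. The groups overlapped for 25 of 26, with COL10A1 as the exception (background 6.15%). On 7 arrays, 18 were higher in miR-376a*A and 2 lower (all genes, 19% and 22.9%, 41.9% together), with a median of 0.74 beside 0.00. The 2 lower genes were COL5A2 and COL12A1. COL5A3 and COL21A1, among the 18, passed the filter only through the 3 arrays on which they were high, so they had to differ.

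**Figure D1:**
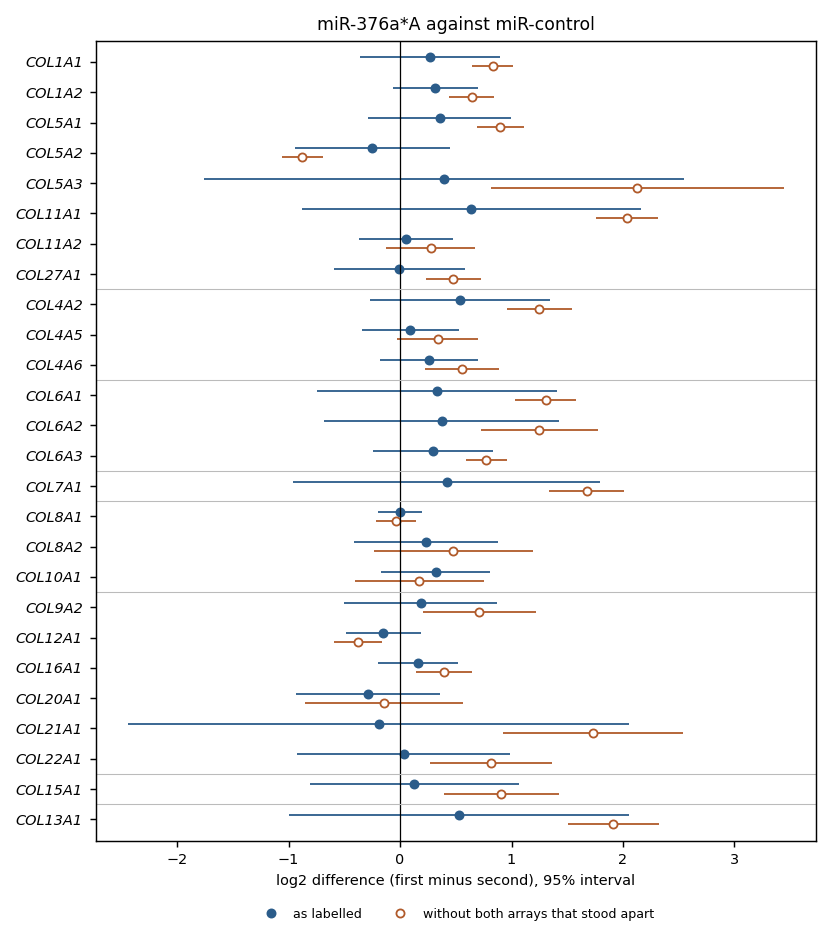
Log2 difference (x axis, on log2(signal + 1)) of each of the 26 tested collagen genes between miR-376a*A and control, with 95% intervals from limma. Filled points use all 9 arrays as labelled and open points leave out the 2 arrays that stood apart, which takes the number of called genes from 0 to 20.

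Among the fibrillar genes, COL5A1 encodes the alpha 1 chain of type V, a minor fibrillar collagen that sets fibril diameter. Its signal was 684, 1392 and 1493 with miR-376a*A, in replicate order, 156, 162 and 162 with miR-376a*G and 1138, 834 and 715 with control. All 3 miR-376a*G arrays were low and close together, and none of the other 6 came near them. The group means were 1189.6 ± 440.4, 160.0 ± 3.74 and 896 ± 218 (SD, n = 3). COL5A1 fell by 2.45 log2 units with miR-376a*G (SE 0.28, adjusted p = 2.9e-04), a 5.47-fold decrease, and was higher in miR-376a*A than in miR-376a*G by 2.81 (SE 0.28, adjusted p = 1.3e-04). Against control, miR-376a*A differed for COL5A1 by 0.35 (adjusted p = 0.886) as labelled and by 0.90 (adjusted p = 3.6e-05) in the 7-array fit. COL27A1, a fibrillar chain found chiefly in cartilage, was also lowest on every miR-376a*G array. Its signals were 244, 474 and 439 (miR-376a*A), 127, 105 and 118 (miR-376a*G) and 482, 324 and 330.3 (control). It fell by 1.67 log2 units with miR-376a*G (SE 0.26, adjusted p = 0.0013) and was higher in miR-376a*A than in miR-376a*G by 1.66 (SE 0.26, adjusted p = 0.0012), with no overlap in either comparison. From control to miR-376a*A it went from -0.01 to 0.48 (adjusted p = 0.0052) in the 7-array fit. Both genes kept these calls under all 22 other settings.

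Type I collagen, the main fibrillar collagen of most connective tissue, is a helix of chains from COL1A1 and COL1A2. COL1A1 signal was 1482, 3065 and 2855 with miR-376a*A, in replicate order, 1686, 1827 and 1761 with miR-376a*G and 2700.2, 1626 and 1700.1 with control. Outside the 2 arrays that stood apart, miR-376a*A was high and the other 2 groups were alike in range. COL1A1 differed by -0.15 (adjusted p = 0.701) between miR-376a*G and control, with a 95% interval of -0.78 to 0.48, and was not called in any comparison as labelled. In the fit of 7 arrays, miR-376a*A was higher than control by 0.83 (adjusted p = 2.3e-05) and higher than miR-376a*G by 0.75 (adjusted p = 8.1e-06). COL1A2 gave 2256, 3054 and 3173 (miR-376a*A), 1938, 2047 and 1881 (miR-376a*G) and 2844, 1860.2 and 2136 (control). It was higher in miR-376a*A than in miR-376a*G by 0.52 (SE 0.17, adjusted p = 0.0378) with no overlap, but that call was lost under 10 of 22 other settings. Between miR-376a*G and control it differed by -0.20 (adjusted p = 0.392). Above control, miR-376a*A went from 0.32 to 0.64 (adjusted p = 2.5e-04) in the 7-array fit. Both probe sets lie near the top of the scale, since the highest signal of any probe set was 3209 to 4336 per array.

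In the comparisons with miR-376a*G, other tested probe sets of the type I genes gave larger differences as labelled. Between miR-376a*A and control, the chosen probe set of COL1A2 gave the largest of its differences, at 0.32, and the smallest was 0.04. A second probe set of COL1A1 had signals of 75.9, 643 and 474 (miR-376a*A), 105, 107 and 138 (miR-376a*G) and 616, 121 and 85.4 (control), so that the same 3 arrays were high as with the chosen probe set. In the 7-array fit, miR-376a*A exceeded miR-376a*G by 2.24 there, against 0.75 on the chosen one. Of the 3 probe sets of COL1A2, the 2 not chosen were called lower in miR-376a*G than in control, at -1.54 (adjusted p = 0.0143) and -0.59 (adjusted p = 0.0291). Whether the chosen ones are near saturation was not tested.

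COL5A2 encodes the partner chain of COL5A1 in type V collagen. Its signal was 1006, 541 and 565 with miR-376a*A, in replicate order, 642, 590.4 and 590.0 with miR-376a*G and 499.6, 1009 and 1022 with control. Replicate 1 of miR-376a*A and control replicates 2 and 3 were high, at 1006 to 1022, and the other 6 arrays lay between 499.6 and 642. As labelled it was not called (miR-376a*G against control -0.40, interval -1.10 to 0.30). With both arrays left out, it was lower than control with either form, at -0.88 (adjusted p = 1.6e-05) for miR-376a*A and -0.74 (adjusted p = 1.3e-05) for miR-376a*G, and the 2 forms differed by -0.14 (adjusted p = 0.145). COL11A1, a minor fibrillar chain of cartilage that also occurs in tumours, gave 48.7, 235 and 248 (miR-376a*A), 134, 110.2 and 123 (miR-376a*G) and 219, 58.8 and 57.6 (control). The miR-376a*G arrays lay between a high set and a low set of the other 6. It was not called as labelled (miR-376a*G against control 0.42, interval -1.10 to 1.94), but in the 7-array fit it was above control by 2.03 (adjusted p = 9.6e-07) with miR-376a*A and 1.05 (adjusted p = 2.1e-05) with miR-376a*G, and miR-376a*A exceeded miR-376a*G by 0.98 (adjusted p = 2.6e-05). COL5A3, another type V chain, was dim at 3.39, 37.5 and 26.7 (miR-376a*A), 5.62, 4.78 and 15.5 (miR-376a*G) and 36.3, 10.7 and 3.76 (control). It was above the array's median on 3 arrays only, miR-376a*A replicates 2 and 3 and control replicate 1, and its differences are not read here. COL11A2 was not called in any comparison with either set of arrays, and differed by 0.21 between miR-376a*G and control (interval -0.21 to 0.63).

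**Figure D2:**
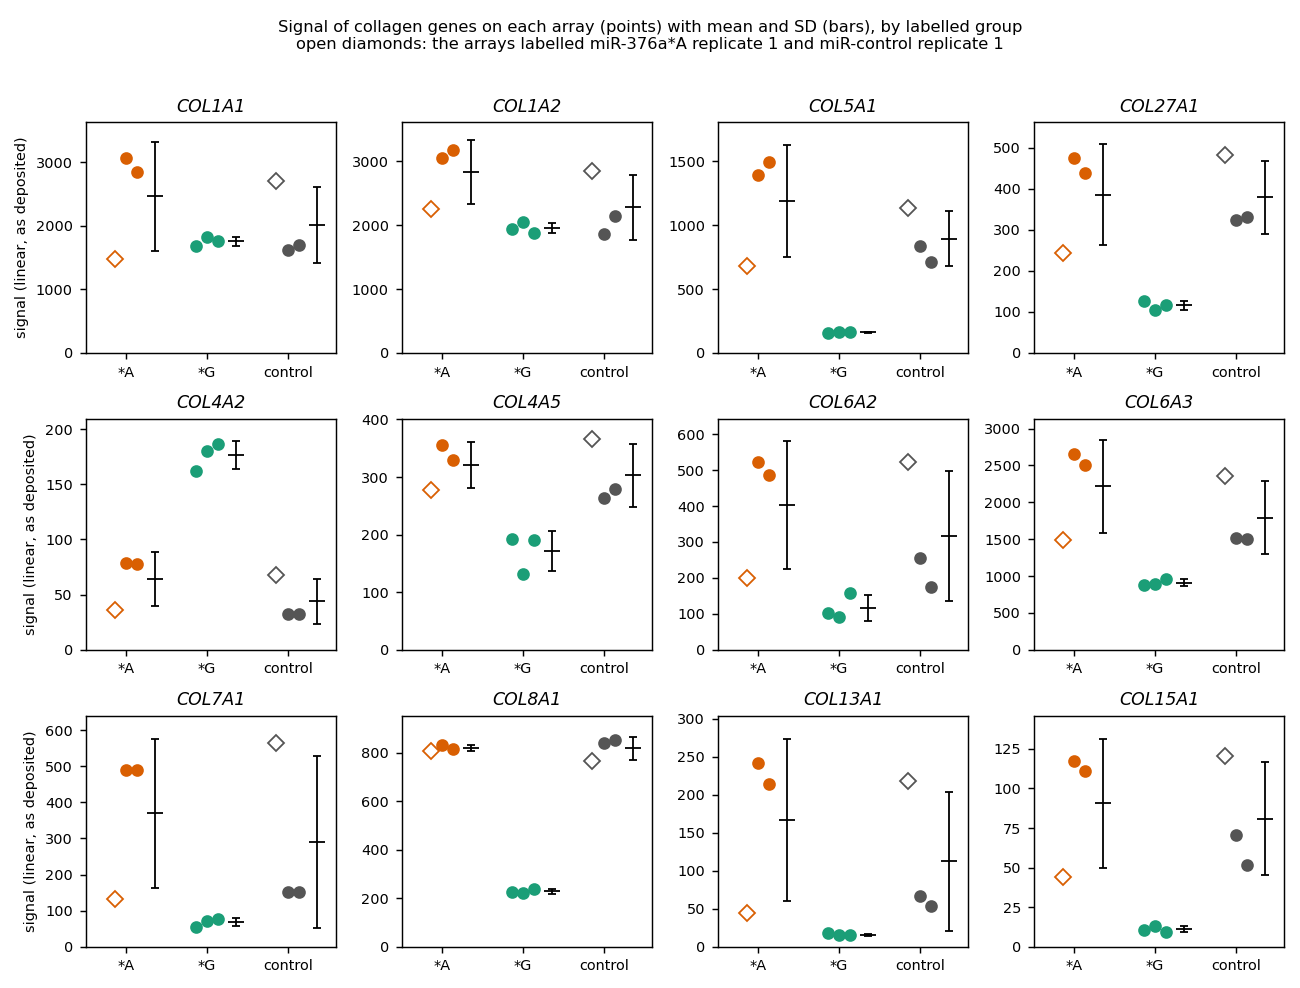
Deposited linear signal (y axis) of 12 collagen genes on each array (points) in the 3 labelled groups (x axis), with the mean and SD of 3 arrays as bars. Open diamonds mark the 2 arrays that stood apart, which lie with the opposite group for COL6A2, COL7A1 and COL13A1 among others, while the 3 miR-376a*G arrays of COL8A1, at 221 to 238, lie apart from all 6 others, at 765 to 849.9.

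Basement membrane genes moved in both directions. COL4A2 encodes the alpha 2 chain that joins COL4A1 chains in the common type IV network. Its signal was 36.1, 78.7 and 78.0 with miR-376a*A, in replicate order, 162, 181 and 186 with miR-376a*G and 67.4, 32.6 and 32.1 with control. Every miR-376a*G array was higher than every other array. The means were 64.2 ± 24.4, 176 ± 12.6 and 44.0 ± 20.3 (SD, n = 3), and COL4A2 rose with miR-376a*G by 2.06 (SE 0.36, adjusted p = 0.0023) and was lower in miR-376a*A than in miR-376a*G, at -1.52 (SE 0.36, adjusted p = 0.0093). On 7 arrays, miR-376a*A was also above control, by 1.25 (adjusted p = 3.2e-05). A second probe set of COL4A2 was called in the same direction in both comparisons with miR-376a*G (1.87 and -1.21). COL4A1, whose start lies across those 126 bases on the other strand, was not above its array's median on any of 9 arrays, with signals of 0.71, 4.13 and 5.18 (miR-376a*A), 11.9, 9.04 and 6.05 (miR-376a*G) and 11.1, 4.65 and 7.03 (control), and was not tested.

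COL4A5 and COL4A6 form a second head-to-head pair and encode chains of specialised basement membranes. COL4A5 gave 277, 356 and 329.9 (miR-376a*A), 193, 132 and 190.2 (miR-376a*G) and 366, 264 and 279 (control), with all miR-376a*G arrays below all others. It fell by 0.82 log2 units with miR-376a*G (SE 0.19, adjusted p = 0.0104) and was higher in miR-376a*A than in miR-376a*G by 0.91 (SE 0.19, adjusted p = 0.0056). Scaling to the hybridisation controls ended both calls, at -0.42 and 0.24, and a second probe set of COL4A5 was at 0.03 against control without a call. COL4A6 gave 72.6, 102 and 102 (miR-376a*A), 107, 83.7 and 105 (miR-376a*G) and 92.4, 71.2 and 67.0 (control), and the groups overlapped. As labelled it was not called (miR-376a*G against control 0.36, interval -0.08 to 0.80). In the fit of 7 arrays, it was above control by 0.50 (adjusted p = 0.0094) with miR-376a*G and 0.56 (adjusted p = 0.0119) with miR-376a*A.

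The 3 tested genes of type VI, which forms beaded filaments around cells, were all below control in miR-376a*G, and 1 was called. COL6A3, its longest chain, had a signal of 1493, 2659 and 2499 with miR-376a*A, in replicate order, 881, 889 and 966 with miR-376a*G and 2362, 1510.0 and 1502 with control. The miR-376a*G arrays were lowest with no overlap. It fell by 0.94 log2 units (SE 0.24, adjusted p = 0.0144), and was 1.24 (SE 0.24, adjusted p = 0.0035) higher in miR-376a*A than in miR-376a*G. COL6A1, which like COL6A2 encodes a short chain, gave 558, 1608 and 1385 (miR-376a*A), 459, 397 and 520.0 (miR-376a*G) and 1714, 618 and 587 (control). COL6A2 gave 199.8, 522 and 488 (miR-376a*A), 102, 90.7 and 158 (miR-376a*G) and 521, 254 and 176 (control). These neighbouring genes were high on the same 3 arrays, namely miR-376a*A replicates 2 and 3 and control replicate 1. Against control, miR-376a*G differed by -0.90 (adjusted p = 0.175) and -1.33 (adjusted p = 0.0559), without overlap but also without a call. In the 7-array fit, both were called lower (-0.40 and -0.89), and both were above control in miR-376a*A (1.31 and 1.25). COL6A1 was then also higher in miR-376a*A than in miR-376a*G, by 1.71 (adjusted p = 3.6e-07), and COL6A3 was above control in miR-376a*A, by 0.77 (adjusted p = 3.6e-05), from 0.30 as labelled. As labelled, COL6A2 was higher in miR-376a*A than in miR-376a*G by 1.70 (adjusted p = 0.0190) and COL6A1 by 1.24 (adjusted p = 0.0679). The COL6A2 call was lost under 6 of 22 other settings. The call of COL6A3 against control was lost with scaling to the hybridisation controls (-0.54) or without miR-376a*G replicate 1 (-0.92), and its call between the 2 forms was lost on that scale (0.57).

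COL8A1, a short-chain collagen of vessel walls and the cornea's inner membrane, was the collagen gene with the smallest p. Its signal was 806, 830.4 and 816 with miR-376a*A, in replicate order, 225, 221 and 238 with miR-376a*G and 765, 838 and 849.9 with control. All 6 arrays without miR-376a*G were alike, the 2 that stood apart included. The means were 817 ± 12.4, 228 ± 8.60 and 818 ± 46.2 (SD, n = 3). COL8A1 fell by 1.84 log2 units with miR-376a*G (SE 0.09, adjusted p = 5.7e-06), a 3.57-fold decrease, and by the same size against miR-376a*A, at 1.84 (SE 0.09, adjusted p = 6.0e-06). From control to miR-376a*A the difference was 0.00, with an interval of -0.20 to 0.20, or -0.04 (-0.22 to 0.14) in the 7-array fit. Its calls held under all 22 other settings, but the differences were as small as -0.69 against control and 0.69 between the 2 forms. A second tested probe set of COL8A1 was called lower as well (-1.15 against control). The other short-chain genes COL8A2 and COL10A1 were not called with either set of arrays. Between miR-376a*G and control they were at 0.38 (interval -0.27 to 1.03) and -0.11 (-0.60 to 0.37). COL10A1, a product of maturing cartilage, gave 22.9, 24.4 and 23.5 (miR-376a*A), 18.4, 18.1 and 15.4 (miR-376a*G) and 14.7, 21.0 and 21.4 (control), so that miR-376a*A was highest on every array, at 0.43 (adjusted p = 0.143) above miR-376a*G and 0.32 (adjusted p = 0.886) above control. These signals were dim, and those of miR-376a*G lay below their arrays' medians of 24.6, 21.7 and 23.6. COL10A1 passed the filter only through arrays without miR-376a*G, so its separation from that group is not independent of the filter.

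COL15A1, a multiplexin that sits where basement membranes meet the stroma, gave 43.8, 117 and 111 (miR-376a*A), 10.4, 13.1 and 9.43 (miR-376a*G) and 120.4, 70.5 and 51.4 (control). It fell by 2.70 log2 units with miR-376a*G (SE 0.42, adjusted p = 0.0013) and was 2.82 (SE 0.42, adjusted p = 9.0e-04) higher in miR-376a*A than in miR-376a*G. The miR-376a*G signals were below their arrays' medians and COL15A1 passed the filter only through the other 6 arrays, so the size depends on the pseudocount and was -0.92 against control with a pseudocount of 64. From control to miR-376a*A it went from 0.13 to 0.91 (adjusted p = 0.0096) in the 7-array fit. COL13A1, a transmembrane collagen of adhesion sites, gave 45.0, 241 and 214 (miR-376a*A), 17.5, 15.2 and 14.9 (miR-376a*G) and 218, 66.7 and 53.1 (control). The arrays without miR-376a*G split into a high set of 3 and a lower set of 3, all above the miR-376a*G arrays. Against control COL13A1 fell by 2.47 log2 units (SE 0.68, adjusted p = 0.0208), and miR-376a*A exceeded miR-376a*G by 3.00 (SE 0.68, adjusted p = 0.0078). Like COL15A1, it passed the filter only through the other 6 arrays, and with a pseudocount of 64 the difference from control was -1.03 (adjusted p = 0.0867). Above control, miR-376a*A went from 0.53 to 1.91 (adjusted p = 1.8e-05) in the 7-array fit. The fall against control was not called under 6 of 21 other settings, and 2 further probe sets of COL13A1 were not called (-0.42 and -0.29). COL7A1, the anchoring fibril collagen beneath epithelia, gave 131, 489 and 489 (miR-376a*A), 54.6, 72.4 and 76.9 (miR-376a*G) and 565, 152 and 153 (control). It fell by 1.80 log2 units (SE 0.61, adjusted p = 0.0491), close to the threshold, and kept that call under 7 of 22 other settings, with -1.17 (adjusted p = 3.9e-05) in the 7-array fit. The 2 forms differed by 2.21 (SE 0.61, adjusted p = 0.0193), a call lost under 5 of 22 other settings. From control to miR-376a*A it went from 0.42 to 1.67 (adjusted p = 1.2e-05) in the 7-array fit.

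The 6 tested fibril-associated collagens, which bind the surface of fibrils or lie near them, were not called in any comparison as labelled, and their differences between miR-376a*G and control ran from -0.33 to 0.38. COL12A1, a fibril-associated chain of tendon and fascia, gave 286, 233 and 240.0 (miR-376a*A), 319, 309 and 357 (miR-376a*G) and 230.3, 318 and 298 (control). In that gene miR-376a*G was above miR-376a*A on every array without a call, at -0.38 (adjusted p = 0.0753). With both arrays left out, miR-376a*A was below miR-376a*G at -0.47 (adjusted p = 9.8e-04) and below control at -0.38 (adjusted p = 0.0105). Of the 4 tested probe sets of COL12A1, 1 was called higher in miR-376a*G than in control, at 0.84. COL16A1 gave 110.4, 149 and 160.0 (miR-376a*A), 111, 108 and 118 (miR-376a*G) and 137, 114 and 121 (control) and was above control in miR-376a*A by 0.39 (adjusted p = 0.0180) in that second fit, and above miR-376a*G by 0.46 (adjusted p = 0.0029). COL21A1 was dim, at 1.04, 28.2 and 28.8 (miR-376a*A), 13.0, 9.47 and 7.98 (miR-376a*G) and 32.4, 7.43 and 8.36 (control). It was above the array's median on 3 arrays only, at 28.2, 28.8 and 32.4, and its differences are not read here. COL22A1, found at tissue junctions, gave 21.7, 61.0 and 43.8 (miR-376a*A), 41.2, 36.1 and 44.0 (miR-376a*G) and 64.9, 35.4 and 23.7 (control), and was higher in miR-376a*A than in control by 0.81 (adjusted p = 0.0215) in the 7-array fit. COL9A2, a chain of cartilage type IX, gave 18.8, 37.6 and 31.2 (miR-376a*A), 31.8, 29.5 and 35.9 (miR-376a*G) and 35.2, 19.0 and 22.1 (control) and was higher by 0.71 (adjusted p = 0.0285). COL9A2 was then also higher in miR-376a*G than in control, by 0.63 (adjusted p = 0.0246). COL20A1, at 19.7, 40.1 and 18.6 (miR-376a*A), 36.7, 37.7 and 30.9 (miR-376a*G) and 30.3, 33.9 and 27.2 (control), was not called with either set of arrays and differed by 0.20 between miR-376a*G and control (interval -0.45 to 0.85).

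**Figure D3:**
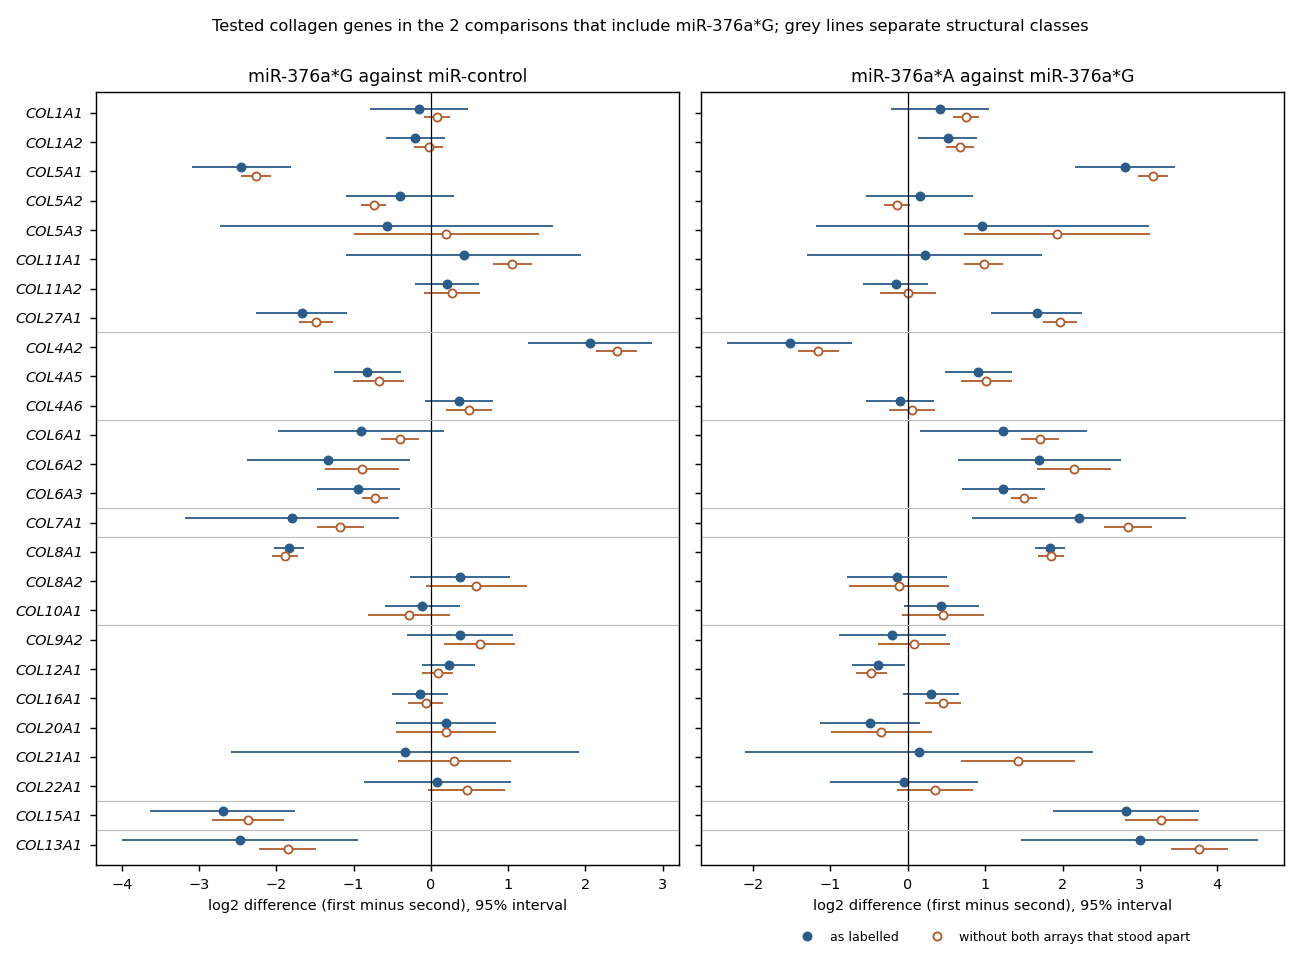
Log2 differences (x axes) of the 26 tested collagen genes in miR-376a*G against control (left) and miR-376a*A against miR-376a*G (right), ordered by structural class, with 95% intervals from limma. Filled points use all 9 arrays and open points leave out the 2 that stood apart. COL4A2 lies opposite to COL5A1, COL8A1, COL13A1 and COL15A1 in both panels. COL13A1 and COL15A1 passed the filter only through arrays without miR-376a*G.

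The 17 collagen genes that were not tested had no signal above 23.3 on any array. They were COL4A1, COL4A3 and COL4A4 of the basement membrane class, the fibrillar COL2A1, COL3A1 and COL24A1, and 11 of other types (COL6A5, COL6A6, COL9A1, COL9A3, COL14A1, COL18A1, COL19A1, COL23A1, COL25A1, COL26A1 and COL28A1). COL3A1, which forms mixed fibrils with type I collagen in many tissues, gave 13.5, 13.9 and 17.6 (miR-376a*A), 20.3, 22.7 and 22.0 (miR-376a*G) and 14.2, 17.0 and 11.8 (control) and was above the array's median on 1 array. A dim probe set bounds the transcript only as far as its probes work, so absence was not shown. Among 17 tested genes with over 1 tested probe set, the differences between miR-376a*G and control had the same sign on every tested probe set for 14. The exceptions were COL4A5, COL9A2 and COL22A1.

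Genes that serve collagen were counted from 4 lists in the same fit. In synthesis and folding, 7 of 21 tested genes fell with miR-376a*G and 1 rose, with a median of -0.31 beside 0.12 for all genes (all genes called, 15.4% lower and 18% higher). SERPINH1 encodes HSP47, the chaperone of procollagen, and its signals were 710.1, 1433 and 1499.8 (miR-376a*A), 170.0, 189 and 186 (miR-376a*G) and 1358, 697 and 710.0 (control). The miR-376a*G arrays were far below the rest, and SERPINH1 differed from control by -2.27 (SE 0.33, adjusted p = 8.8e-04) and miR-376a*A exceeded miR-376a*G by 2.66 (SE 0.33, adjusted p = 3.4e-04). SEC23A, a coat protein of the vesicles that carry procollagen out of the endoplasmic reticulum, gave 866, 962 and 993 (miR-376a*A), 356, 355 and 344 (miR-376a*G) and 903, 784 and 831 (control). The 2 arrays that stood apart lay within the range of the others here, and SEC23A fell with a log2 difference of -1.25 (SE 0.09, adjusted p = 3.1e-05). P4HA1, a prolyl hydroxylase subunit that stabilises the helix, differed by -1.18 (SE 0.21, adjusted p = 0.0025), but by -0.34 and without a call when its probe sets were averaged. PLOD2, a lysyl hydroxylase, differed by -0.84 (SE 0.13, adjusted p = 0.0015). The gene that rose was P3H2, a prolyl hydroxylase, named after its value was seen, at 0.82 (SE 0.19, adjusted p = 0.0094). On 7 arrays, 10 fell and 3 rose (all genes, 25% and 31.2%).

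Among genes of procollagen processing and crosslinking, 3 of 10 fell with miR-376a*G and 1 rose (all genes, 15.4% and 18%), with a median of -0.92. On 7 arrays, 6 fell and 1 rose (all genes, 25% and 31.2%). PCOLCE2, an enhancer of the protease that trims procollagen, gave 732, 443 and 482 (miR-376a*A), 196, 186 and 194 (miR-376a*G) and 432, 747 and 748 (control) and differed from control by -1.69 (SE 0.25, adjusted p = 9.4e-04). LOX, the crosslinking lysyl oxidase, gave 1092, 1405 and 1573 (miR-376a*A), 579.9, 619 and 582 (miR-376a*G) and 1251, 1089 and 1127 (control) and differed by -0.96 (SE 0.13, adjusted p = 6.9e-04). In both genes the 3 miR-376a*G arrays were lowest. BMP1, that trimming protease, differed by -1.12 (SE 0.30, adjusted p = 0.0178), a call lost under 5 of 22 other settings. ADAMTS3, a protease that cuts the amino end of procollagen, was the one that rose, by 1.61 (SE 0.16, adjusted p = 1.3e-04), from 30.5, 24.8 and 23.9 to 84.2, 78.3 and 83.8. In miR-376a*A against miR-376a*G, 6 of the 10 were higher (all genes, 16.4%) and ADAMTS3 was lower, at -1.45 (SE 0.16, adjusted p = 2.1e-04).

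Of 9 tested collagen receptors and uptake genes, 3 fell with miR-376a*G and 0 rose (all genes, 15.4% and 18%), with a median of -0.75. They were ITGA1 and ITGB1, the chains of a collagen-binding integrin, at -1.09 (SE 0.18, adjusted p = 0.0016) and -0.75 (SE 0.13, adjusted p = 0.0026), and MRC2, an endocytic collagen receptor, at -1.19 (SE 0.29, adjusted p = 0.0127). ITGA1 was dim, at 25.3, 20.0 and 20.1 with miR-376a*G, where the array medians were 24.6, 21.7 and 23.6. It stayed called under 21 other settings, but its difference was as small as -0.38. The MRC2 call was lost with hybridisation control scaling, with probe sets averaged and without miR-376a*G replicate 1, and the ITGB1 call with probe sets averaged. ITGA11, another collagen-binding integrin chain, was at -1.17 (SE 0.42, adjusted p = 0.0632). On 7 arrays, 6 of the 9 receptors and uptake genes fell and 3 rose (all genes, 25% and 31.2%). In miR-376a*A against miR-376a*G, 5 were higher (all genes, 16.4%), and GP6, a platelet receptor whose signal was dim here, was lower, at -0.89 (SE 0.23, adjusted p = 0.0157). Of 7 tested collagen-degrading proteases, 2 fell and 0 rose (all genes, 15.4% and 18%), with a median of 0.07. On 7 arrays, 3 of these proteases fell and 2 rose (all genes, 25% and 31.2%). FAP, a serine protease of activated fibroblasts, differed from control by -1.23 (SE 0.30, adjusted p = 0.0127) and MMP2, a gelatinase, by -0.50 (SE 0.09, adjusted p = 0.0034), while MMP9 and MMP8 were at 0.41 (SE 0.17, adjusted p = 0.0909) and 0.67 (SE 0.31, adjusted p = 0.133). The MMP2 call was lost on the hybridisation control scale (-0.10) and with probe sets averaged.

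Between miR-376a*A and control, 0 of the 47 tested genes of these 4 lists were called by limma as labelled, beside 0 of all genes, and 1 had an unadjusted p under 0.05. In the fit of 7 arrays, 14 of 21 synthesis and folding genes were higher and 3 lower, 8 and 1 of 10 processing and crosslinking genes, 4 and 1 of 9 receptors, and 3 and 2 of 7 proteases (all genes, 19% and 22.9%). Of the genes with the smallest p in each list, CRTAP, a partner of a prolyl hydroxylase, was at 0.15 (SE 0.06, adjusted p = 0.886), LOXL3, a lysyl oxidase relative, at 0.39 (SE 0.37, adjusted p = 0.886), and the collagenases MMP1 and MMP14 at 0.63 (SE 0.57, adjusted p = 0.886) and -0.24 (SE 0.22, adjusted p = 0.886). In the 7-array fit these 4 were at 0.18, 1.16, 1.77 and -0.65. LOXL1, another such relative, gave 190.2, 1135 and 1079 for miR-376a*A and 1075, 239.8 and 179 for control, and ITGA2, a collagen-binding integrin chain, gave 299, 972 and 1047 for miR-376a*A and 919, 330.2 and 324 for control. In both, 1 array of each group lay with the other group. Their log2 differences went from 0.78 (SE 0.79, adjusted p = 0.886) to 2.41 and from 0.54 (SE 0.52, adjusted p = 0.886) to 1.62 in the 7-array fit.

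**Figure D4:**
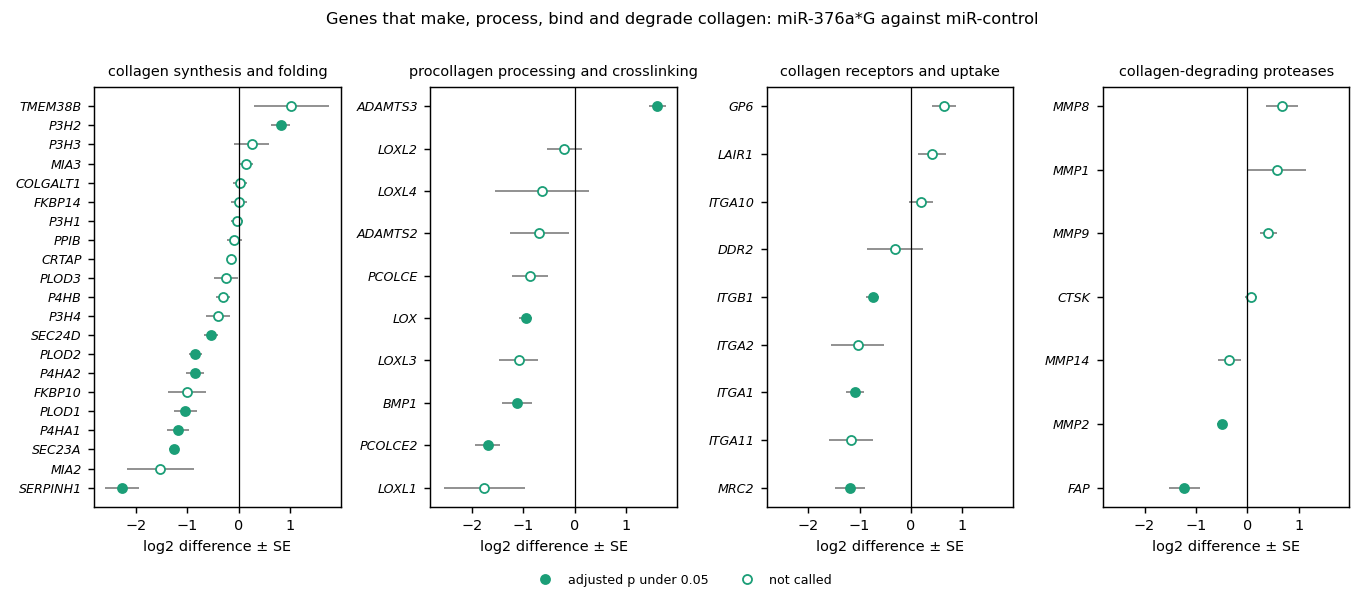
Log2 difference with its SE (x axes) between miR-376a*G and control for the 47 tested genes of the 4 lists, 1 panel per list, sorted by size. Filled points passed an adjusted p under 0.05, among them SERPINH1, SEC23A, PCOLCE2 and LOX below 0 and ADAMTS3 above it.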

How the data were processed

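RNA from 9 samples of U87 cells was hybridised to 1-colour Affymetrix arrays of 54675 probe sets. The deposited values are linear intensity per probe set computed, per the submitters' processing notes, with GCOS 1.4.0.036, and each array's trimmed mean (2%) was close to 100.01. The summarisation method is not given in the sources used here, and the number of arrays limits the precision. Of 42898 probe sets with a symbol in the platform annotation, 41091 had 1 symbol, and 19735 of the 19775 genes matched RefSeq (GRCh38.p14). Differences are on log2(signal + 1), which understates those of dim genes. limma 3.58.1 (R 4.3.3) fitted the 3 groups together, with empirical Bayes moderation, a trend and 6 residual degrees of freedom, and p-values were adjusted over all 12587 tested genes by Benjamini-Hochberg. The script was tested on simulated data. Members and lists were chosen with earlier results of these data known. By rule, every tested collagen gene was named, with all 9 signals where called in either set of arrays, plus the 4 genes with the smallest p per pathway list and comparison. Pathway lists held 23, 13, 10 and 8 genes. Alternatives changed the pseudocount, filter, scaling, probe set rule, samples, weights, block and trend. Fitting each probe set on its own was chosen after seeing the data.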

Additional observations from a re-analysis of the deposited data

How the results depend on the processing

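The counts of called collagen genes were 0 between miR-376a*A and control, 9 between miR-376a*G and control and 11 between the 2 forms. They came to 18, 17 and 19 with array weights (16 higher and 2 lower, 6 and 11, 16 and 3), and to 20, 15 and 18 without both arrays that stood apart (18 and 2, 4 and 11, 16 and 2). Leaving out 1 array at a time gave 0 to 0, 6 to 10 and 8 to 15. The lowest count of miR-376a*G against control came without miR-376a*G replicate 1. Averaging the probe sets of a gene gave 0, 9 (3 higher, 6 lower) and 13 (10 and 3). Whether the replicate numbers pair the arrays could not be told. Deviations from group means of same-numbered arrays correlated at -0.88, -0.61 and -0.56 between miR-376a*A and control and at -0.17 to 0.05 in the pairs with miR-376a*G. Replicate 1 of both miR-376a*A and control stood apart, and deviations within a group cancel. These correlations therefore carry the mark of those 2 arrays and can neither show nor exclude a pairing. With the replicate number as a block the counts were 0, 7 and 8. Signs that turned, counted where either value was called, were COL21A1 (1.49 with array weights and 1.73 without both arrays) and COL27A1 (0.39 and 0.48) between miR-376a*A and control. COL21A1 passed the filter only through the 3 arrays on which it was high. On the hybridisation control scale they were CRTAP (0.25 in miR-376a*G against control, -0.38 between the 2 forms), and COL1A2 (-0.15) and MMP2 (-0.018) between the 2 forms. On that scale 85.5% of all calls between miR-376a*G and control were higher, against 53.9% as deposited and 29.1% with arrays centred on their medians. Between the 2 forms the shares were 7.62%, 43.0% and 70.1%. The causes were not tested. Dim genes such as COL5A3 and COL21A1 lie near the array medians of 18.0 to 24.6, so their differences are the least certain.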
